A study of Rattus norvegicus with 12 samples.

Results

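The genes described here are 8 genes of gluconeogenesis, the synthesis of glucose by the liver: Pck1, Pck2, Fbp1, Slc37a4, Mdh1, Ldha, Gpd1 and Ppargc1a. They were chosen by name, and every probe set that the platform annotation gives to only that gene was taken, which gave 13 probe sets. They are 8 of the 14217 named genes on the array. Livers came from 12 male Wistar rats, an outbred laboratory strain, 5 weeks of age per the labels, with 1 Affymetrix array per rat. All rats first ate the purified AIN93G diet for 4 days. For the next 11 days the maple syrup group ate that diet with 20% maple syrup, and the sugar mix group ate it with 20% of a syrup mixed to a similar sugar composition. All rats were then fasted for 16 hours, so the data hold no fed liver and no liver from the plain diet. The labels speak of 7 rats fed maple syrup and 8 fed sugar mix, and 6 arrays of each diet were analysed here. The title of the series names a protective effect of maple syrup on the liver as its subject.

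During a fast the liver releases glucose made from lactate, glycerol and amino acids. Phosphoenolpyruvate carboxykinase, encoded by Pck1 in the cytosol and by Pck2 in mitochondria, turns oxaloacetate into phosphoenolpyruvate. This reaction is part of the branch that bypasses the irreversible last step of glycolysis. Fructose-1,6-bisphosphatase, encoded by Fbp1, bypasses the phosphofructokinase step, and the transporter encoded by Slc37a4 carries glucose 6-phosphate into the endoplasmic reticulum, where free glucose is released. Cytosolic malate dehydrogenase (Mdh1), lactate dehydrogenase A (Ldha) and glycerol 3-phosphate dehydrogenase (Gpd1) bring carbon from malate, lactate and glycerol into the route. Ppargc1a encodes PGC-1alpha, a coactivator that fasting hormones induce in liver and that raises transcription of Pck1 and other genes of the route. Glucagon acts on several of these promoters through CREB, a factor that binds the cyclic AMP response element.

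The promoters that hold the core letters of that element are shown because the element is a textbook route of fasting signals to Pck1 and Ppargc1a. RefSeq promoter windows (build GRCr8) were found for 7 of the 8 genes, and Gpd1 had no entry in the table used. The 250 bases before the start site were searched on both strands for the full palindrome TGACGTCA and for its core ACGTCA, which lies inside the palindrome. The full palindrome was found for Ldha and Ppargc1a, and the core for these and for Pck1 and Slc37a4. Among all 33469 windows of the table, 1.59% held the palindrome and 6.95% held the core. Capitals mark the match, and each sequence reads 5′ to 3′ on the strand of its gene.

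Pck1 chr3:182348322-182348571 (+): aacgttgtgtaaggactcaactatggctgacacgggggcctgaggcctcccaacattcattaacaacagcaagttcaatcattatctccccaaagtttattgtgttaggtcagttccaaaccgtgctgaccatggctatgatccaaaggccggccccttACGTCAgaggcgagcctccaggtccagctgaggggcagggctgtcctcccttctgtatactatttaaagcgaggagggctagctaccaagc
Ppargc1a chr14:63634058-63634307 (+): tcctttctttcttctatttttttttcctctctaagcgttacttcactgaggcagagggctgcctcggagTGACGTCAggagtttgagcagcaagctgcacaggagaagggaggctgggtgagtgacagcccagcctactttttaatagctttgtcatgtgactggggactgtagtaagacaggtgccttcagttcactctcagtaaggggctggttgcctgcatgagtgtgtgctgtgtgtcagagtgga
Ldha chr1:106507842-106508091 (+): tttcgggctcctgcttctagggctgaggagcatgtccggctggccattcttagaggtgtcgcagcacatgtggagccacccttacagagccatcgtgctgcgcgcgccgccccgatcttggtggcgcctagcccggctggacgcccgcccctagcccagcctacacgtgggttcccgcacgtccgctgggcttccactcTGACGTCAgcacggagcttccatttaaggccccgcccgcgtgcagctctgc
Slc37a4 chr8:53619775-53620024 (+): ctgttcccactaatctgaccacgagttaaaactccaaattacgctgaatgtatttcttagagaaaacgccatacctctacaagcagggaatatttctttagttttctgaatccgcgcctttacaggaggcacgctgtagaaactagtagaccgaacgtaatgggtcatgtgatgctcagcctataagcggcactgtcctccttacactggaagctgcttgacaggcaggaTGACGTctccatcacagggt

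In Pck1 the core lay at -91 to -86 from the start site, inside the letters TTACGTCA. In Ppargc1a it lay at -179 to -174 and in Ldha at -49 to -44, both inside the palindrome. In Slc37a4 it lay on the opposite strand at -20 to -15 of the first of 2 windows, inside AGACGTCA. The windows of Pck2, Fbp1 and Mdh1 did not hold these letters. A match is a description of the sequence and was not tested as a binding site.

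The values are the authors' deposited score per probe set. Levels over the whole table ran from 5.57 to 15.21, a span typical of log2 intensities. Livers differed far less than such a scale would give: the standard deviation (SD) over the 12 livers had a median of 7.13e-06. The SD was 1.16e-06 for Pck1 and 0.000754 for a probe set of Ppargc1a, and how strongly each probe set was compressed is not known. No fold change is given, because a step of the score cannot be read as one. Each liver's value is given as its distance from the mean of that probe set over the 12 livers, in SD units. The size of a diet difference is given as Hedges' g, the mean with maple syrup less that with sugar mix, divided by the SD between rats of 1 diet (6 rats each). Levels of different probe sets are not set against each other, since brightness depends on the probes.

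Markers of hepatocytes, the cells that make glucose, were measured for 10 of 10 genes, with levels from 11.35 (Tat) to 15.21 (Alb). Exact permutation tests of the mean standardised markers between diets gave p = 0.866 for hepatocytes, 0.398 for Kupffer cells and macrophages, 0.387 for sinusoidal endothelium, 0.758 for the stellate cell and fibroblast list, 0.563 for bile duct cells and 0.948 for blood. The score has no true zero, so no marker can be called absent. In whole liver, fewer cells of a type and less RNA per cell cannot be told apart. Of 9 measured genes known to be higher in fasted liver, 4 had a lower and 5 a higher mean with maple syrup, with a median g of 0.10. Of the 9, 0 had an unadjusted limma p under 0.05, against 4.16% of all named genes. Acadm had the highest g of the 9, 1.54, with a limma p of 0.0511 before adjustment. Of 8 measured genes known to be higher in fed liver 4 had a lower mean, and 3 had an unadjusted limma p under 0.05, beside the same 4.16%. They were Srebf1 (g = -1.32), Me1 (g = 1.32) and Pklr (g = 1.21), none of which passed after adjustment.

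The question put to these genes was whether livers of rats fed maple syrup differed from those of rats fed sugars alone. All 8 genes had a lower mean with maple syrup in the values as deposited, and 4 of 8 did so after each array was centred on its median, a step that left 7.08% of all named genes lower. No probe set passed the test over the whole array. Pck1 stood furthest apart, with g = -1.91, and Fbp1 followed with g = -1.38. Mdh1 and Pck2 had g = -0.89 and g = -0.84 from the probe sets with the highest mean. Ppargc1a, with g = -0.16, had the g nearest to 0 of the 8. The means of 52.9% of all named genes were lower with maple syrup, and the genes were chosen with this direction already known for several of them, so the count of 8 is a description only.

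With limma and Benjamini-Hochberg adjustment over all 31042 probe sets, 0 of the 13 probe sets had an adjusted p under 0.05, against 0 (0%) on the whole array. The adjusted p was 1 for each of the 13, and the smallest on the array was 0.915. Without adjustment 2 of the 13, those of Pck1 and Fbp1, had a limma p under 0.05, against 1264 (4.07%) of all probe sets. Of all probe sets 2.15% had such a p and a lower mean with maple syrup. The exact permutation test over all arrangements of the rats also called 0 probe sets after adjustment, and 1252 (4.03%) without it. The 95% interval of g left out 0 for the same 2 probe sets, against 4.06% of all probe sets. The diets did not separate fully in any of the 13, as they did in 0.11% of the array.

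**Figure D1:**
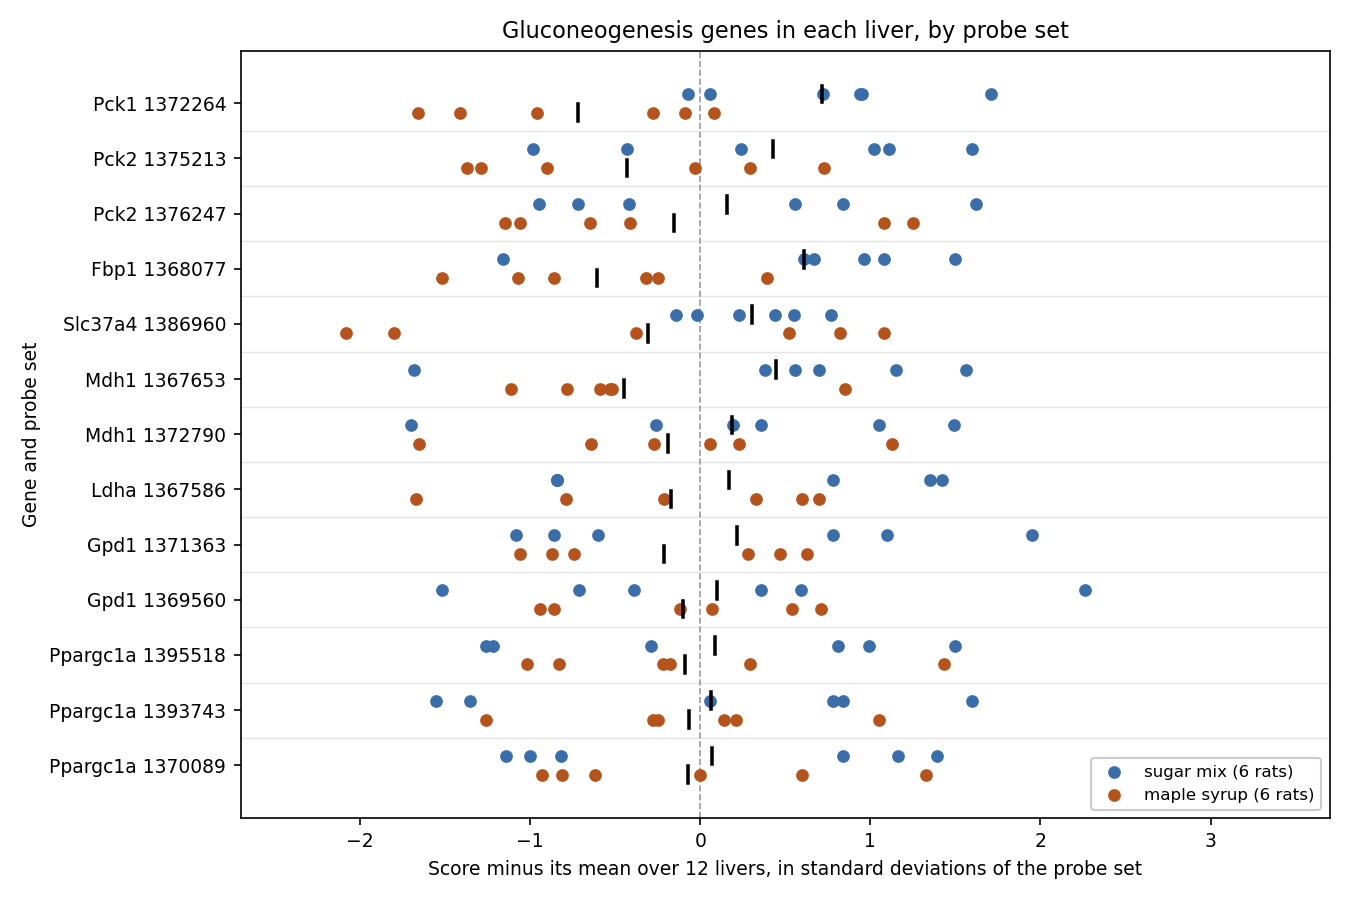
Score of each of the 13 probe sets in each liver, as the distance from the mean over 12 livers in SD of the probe set (x axis), with 1 row per gene and probe set. Blue points are 6 sugar mix rats, orange points 6 maple syrup rats and black bars diet means. The diets overlap in every row. For Pck1 5 of 6 maple syrup rats lie below all sugar mix rats, 1 of them only just.

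Pck1 encodes the cytosolic carboxykinase, a main point of hormonal control of the route. Its only probe set, 1372264_at, had a mean level of 14.1297, and the 12 livers lay between 14.12972245 and 14.12972636. In maple syrup rats the lowest, median and highest values were -1.66, -0.62 and 0.08 SD, and in sugar mix rats they were -0.07, 0.83 and 1.71 SD. Thus 5 of 6 maple syrup rats were below every sugar mix rat, and the remaining rat, replicate 4, overlapped the low end of the sugar mix group. Of the 5, replicate 1 was only just below, at -0.09 SD against -0.07 SD in sugar mix replicate 1. Pck1 was higher with maple syrup in 2 of the 36 pairs of 1 rat of each diet. The g of -1.91 had a 95% interval from -3.22 to -0.55, with an unadjusted limma p of 0.00522 and an exact two-sided permutation p of 0.00866. By that limma p, Pck1 ranked 96 among all 31042 probe sets. The limma p and the rank depend on the intensity trend: the moderated t was -3.49 with it and -2.41 without it. The value did not hang on any 1 rat: g lay between -2.18 and -1.73 with each rat left out in turn.

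Fbp1 encodes the enzyme of the other irreversible cytosolic step. Its probe set, 1368077_at, had a mean level of 13.7837. The lowest, median and highest values were -1.52, -0.59 and 0.39 SD in maple syrup rats and -1.16, 0.81 and 1.50 SD in sugar mix rats. The 5 sugar mix rats other than replicate 4 were all above the highest maple syrup rat. Fbp1 had g = -1.38 (95% interval -2.56 to -0.15, 6 rats per diet), was higher with maple syrup in 5 of 36 pairs, and had an unadjusted limma p of 0.0247 and an exact permutation p of 0.0346. Sugar mix replicate 4, the low rat, moved this value most: without it g was -2.56.

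Pck2, the mitochondrial carboxykinase, makes phosphoenolpyruvate inside mitochondria. For probe set 1375213_at, with a mean level of 8.8099, the lowest, median and highest values were -1.37, -0.46 and 0.73 SD with maple syrup and -0.98, 0.63 and 1.60 SD with sugar mix. The groups overlapped over most of their range, although 3 sugar mix rats lay above all maple syrup rats. Its g was -0.84 (95% interval -1.93 to 0.28). The other probe set, 1376247_at, had a mean level of 7.5283 and g = -0.28 (95% interval -1.32 to 0.78). Both intervals include 0, and neither probe set differed beyond the spread between rats (exact permutation p = 0.156 and 0.617).

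Slc37a4, the glucose 6-phosphate transporter of the endoplasmic reticulum, had a mean level of 11.1081 from probe set 1386960_at. Sugar mix rats lay close together, with a lowest, median and highest value of -0.14, 0.34 and 0.77 SD. Maple syrup rats ran from -2.08 through a median of 0.07 to 1.08 SD, with replicates 3 and 5 far below the rest at -1.80 and -2.08 SD. The diets overlapped, and g was -0.57 (95% interval -1.63 to 0.52, exact permutation p = 0.344). Leaving out maple syrup replicate 5 moved g to -0.29, and leaving out maple syrup replicate 6 moved it to -0.89. The SD of Slc37a4 between rats was 3.92 times as large with maple syrup as with sugar mix. An exact permutation test of the distances from the diet median, added after these values were seen, gave p = 0.00866 before adjustment and 0.827 after it, with 4.5% of all probe sets under 0.05 before adjustment. For Gpd1 (1371363_at) that ratio was 0.61, with an exact permutation p of 0.0325 and an adjusted p of 1. The summed markers of sinusoidal endothelium ran against Slc37a4 over the 12 livers (r = -0.71, permutation p = 0.00727; rho = -0.56, permutation p = 0.0624). Over the 48 relations of 6 marker lists with the 8 genes the adjusted p were 0.349 and 0.741, and r was -0.50 without the 2 livers farthest from the median marker value. Within maple syrup r was -0.81 and within sugar mix -0.70. The mean of the 6 measured endothelial markers, in SD units, ran from -0.47 to 0.86 in maple syrup rats and from -0.65 to 0.54 in sugar mix rats. The part of these markers in the Slc37a4 values was not tested.

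Mdh1, cytosolic malate dehydrogenase, turns malate that has left mitochondria back into oxaloacetate for Pck1. In probe set 1367653_a_at, with a mean level of 12.4044, maple syrup rats had a lowest, median and highest value of -1.11, -0.56 and 0.85 SD, and sugar mix rats of -1.68, 0.63 and 1.56 SD. Each group had 1 rat away from the others: maple syrup replicate 6 was the high rat of its diet at 0.85 SD, and sugar mix replicate 6 was the low rat of its diet at -1.68 SD. The g of -0.89 had a 95% interval from -1.98 to 0.25 (exact permutation p = 0.119), and without sugar mix replicate 6 it was -2.02. The other probe set, 1372790_at, had a mean level of 8.9062 and g = -0.34 (95% interval -1.38 to 0.73). There sugar mix replicate 4, at -1.70 SD, was the low rat of its diet and replicate 6 was at -0.26 SD, so the probe sets of this gene did not share their low rat.

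Ldha encodes the subunit of lactate dehydrogenase that joins lactate and pyruvate. Its probe set 1367586_at, with a mean level of 14.1183, gave a lowest, median and highest value of -1.67, 0.06 and 0.70 SD with maple syrup and of -0.84, -0.03 and 1.42 SD with sugar mix. The sugar mix rats split into 3 at -0.84 SD and 3 between 0.78 and 1.42 SD, and the maple syrup rats spread across that gap. The g was -0.31 (95% interval -1.35 to 0.75), with a limma p of 0.574 before adjustment.

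Gpd1, the cytosolic glycerol 3-phosphate dehydrogenase, takes up carbon from glycerol. Probe set 1371363_at had a mean level of 11.8149. The lowest, median and highest values were -1.06, -0.23 and 0.63 SD with maple syrup and -1.08, 0.09 and 1.95 SD with sugar mix. All maple syrup values fell inside the range of the sugar mix rats, whose high rat was replicate 3. The g was -0.39 (95% interval -1.44 to 0.68). Probe set 1369560_at had a mean level of 10.2769 and g = -0.18 (95% interval -1.22 to 0.88), and its sign turned to 0.28 without sugar mix replicate 3, which stood at 2.26 SD.

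Ppargc1a, the coactivator, had 3 probe sets, with mean levels of 8.0874 (1395518_at), 7.3559 (1393743_at) and 6.4061 (1370089_at). In the first of them the lowest, median and highest values were -1.02, -0.20 and 1.43 SD with maple syrup and -1.26, 0.26 and 1.50 SD with sugar mix. Within each diet the rats covered nearly the whole range of the 12 livers. The g values were -0.16 (95% interval -1.20 to 0.89), -0.11 (-1.16 to 0.94) and -0.13 (-1.17 to 0.92). Their sign rested on single rats: for example, g of the 3 probe sets reached 0.10, 0.17 and 0.11 without sugar mix replicate 5.

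**Figure D2:**
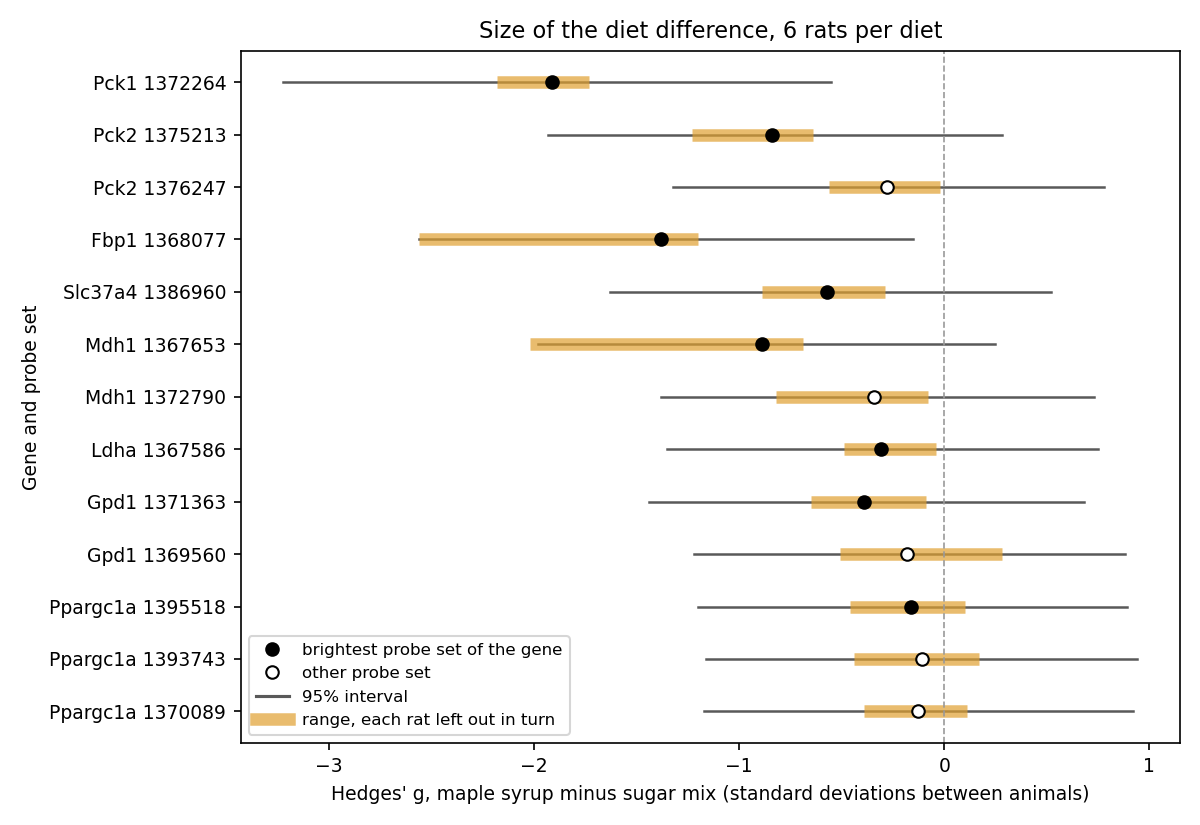
Hedges' g, maple syrup minus sugar mix, as SD between animals (x axis), for each of the 13 probe sets, with 6 rats per diet. Circles are g (filled for the probe set with the highest mean of a gene), thin lines the 95% interval and thick bars the range with each rat left out in turn; the intervals of Pck1 (-3.22 to -0.55) and Fbp1 (-2.56 to -0.15) alone leave out 0.

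The scale of the values limits the direction for the genes with the smallest SD. Array medians differed by 0.000169, which is more than the range of Pck1 (3.91e-06), Fbp1 (5.94e-06), Ldha (4.27e-06) and the probe set of Mdh1 with the highest mean (3.19e-05) over the 12 livers. It is also more than the range of both probe sets of Pck2 (0.000153 for 1375213_at and 5.77e-05 for 1376247_at). When each array was centred on its median, the median g of all named genes moved from -0.04 to 0.36, and g became 0.34 for Pck1, 0.32 for Fbp1, 0.21 for Mdh1 and 0.36 for Ldha. The centred values of Pck1, Fbp1 and Ldha had r = 1.00 with the array median turned in sign, and for Mdh1 r was 0.98. For Pck2 this r was 0.57 (1375213_at) and 0.91 (1376247_at), and g after centring was -0.36 and 0.25. The highest array median, 7.364578, was that of sugar mix replicate 5. The next was 7.364470, of maple syrup replicate 4, and the lowest was 7.364408, of maple syrup replicate 6. Much of the range of array medians thus came from 1 liver. How far the direction after centring rests on that liver was not tested. After quantile normalization Pck1, Fbp1, Mdh1, Ldha and Gpd1 kept the same rank on all 12 arrays in these probe sets, so no difference was left to compute. Slc37a4 was wide enough to give a value both times, with g = -0.51 after centring and g = 0.64 after quantile normalization, so its direction depends on the scaling.

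The livers were not evenly placed across the genes. Over the probe sets with the highest mean, maple syrup replicate 3 was among the 3 lowest livers in 6 of 8 genes and had a median value of -1.15 SD. Maple syrup replicate 2 was below the mean in 7 of 8 genes, with a median of -0.82 SD. Sugar mix replicate 5 was among the 3 highest livers in 6 of 8 genes, with a median of 0.86 SD, and sugar mix replicate 2 had a median of 0.91 SD. By this median alone, each diet also had rats on the other side of the mean. Maple syrup replicate 6 had a median of 0.67 SD and was among the 3 highest livers in 3 genes. It was also among the 3 lowest in 3 genes: Pck1 (-0.96 SD), Fbp1 (-1.07 SD) and Gpd1 (-1.06 SD). Sugar mix replicate 6 had a median of -0.43 SD, and was among the 3 lowest livers in 2 genes and the 3 highest in 2.

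Where a gene had more than 1 probe set, the probe sets mostly ordered the livers alike. The 3 probe sets of Ppargc1a correlated at r = 0.96, 0.93 and 0.89 over the 12 livers, with rho of 0.97, 0.90 and 0.92. The probe sets of Pck2 had r = 0.86 (rho = 0.82) and those of Gpd1 r = 0.81 (rho = 0.75). Mdh1 was the exception in size, with r = 0.53 and rho = 0.75, and its r was 0.79 within maple syrup and 0.38 within sugar mix. The median over these 6 pairs was 0.88. Over all 9597 pairs of probe sets of 1 named gene on the array the median r was 0.28, and 8.75% reached 0.81 when rounded to 2 decimals. Probe sets of 1 gene share the RNA sample and the array, and these correlations are descriptions.

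**Figure D3:**
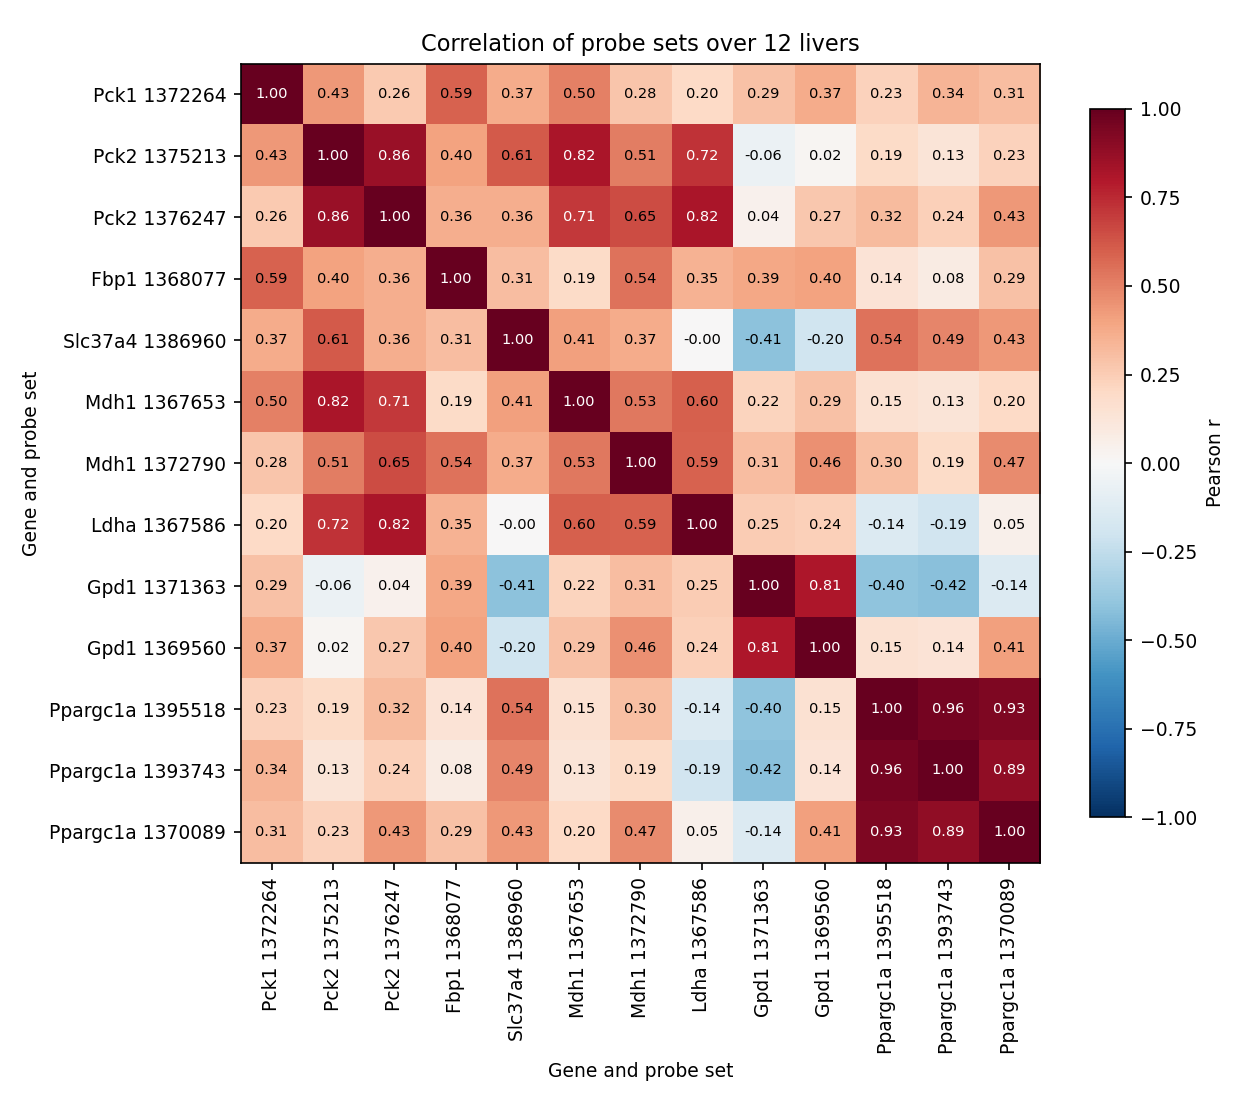
Pearson r between the 13 probe sets over the 12 livers; both axes list gene and probe set, and the colour and the printed value give r. The block of Ppargc1a (0.89 to 0.96) stands out. The values joining Pck2, Mdh1 and Ldha run from 0.51 to 0.82, while Pck1 and Ppargc1a reach only 0.23 to 0.34. Some other pairs of genes fall in the range of the former, such as Pck2 with Slc37a4 (0.61) and Pck1 with Fbp1 (0.59).

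The covariation of the 8 genes over the 12 livers was compared in 28 pairs, using the probe set of each gene with the highest mean. The largest r were those of Pck2 with Mdh1 (0.82), Ldha (0.72) and Slc37a4 (0.61), followed by Mdh1 with Ldha (0.60) and Pck1 with Fbp1 (0.59), while Pck1 with Ppargc1a had 0.23. None of the 28 pairs had an adjusted Pearson p under 0.05, and 5 had an unadjusted permutation p under 0.05 (100000 resamples, adjustment over the 28 pairs). By Spearman's rho 1 pair had an adjusted p under 0.05, and the pair was Pck2 with Mdh1. Its adjusted permutation p of 0.0498 came from random resamples and lay very close to the threshold. Of the pairs, 23 had r above 0 and the median r was 0.30, while 50.6% of all pairs of named genes had r above 0. An absolute r of at least 0.576, the size that an unadjusted p of 0.05 needs with 12 animals, was reached by 5 of 28 pairs (17.9%) and by 6.8% of the 101054436 pairs of named genes. The pairs share genes and livers and are not independent.

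Pck2 and Mdh1 had r = 0.82 (permutation p = 0.00183, adjusted p = 0.0512) and rho = 0.83 (permutation p = 0.00178, adjusted p = 0.0498). The relation was seen in both diets, with r = 0.73 in maple syrup and 0.82 in sugar mix, and r was 0.78 without the 2 rats farthest from the median of Pck2. With diet means subtracted r was 0.77, with an adjusted permutation p of 0.023. Leaving out single rats gave r between 0.76 and 0.88. The second probe set of Pck2 had r = 0.71 with this probe set of Mdh1, and the second probe set of Mdh1 had r = 0.51 and 0.65 with the probe sets of Pck2.

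Pck2 and Ldha had r = 0.72 (permutation p = 0.0113, adjusted p = 0.159) and rho = 0.68 (permutation p = 0.0182, adjusted p = 0.254). Within maple syrup r was 0.56, within sugar mix 0.84, and without the 2 farthest rats 0.87. The second probe set of Pck2 had r = 0.82 with Ldha. Mdh1 and Ldha had r = 0.60 (permutation p = 0.0399, adjusted p = 0.26) and rho = 0.60 (permutation p = 0.0411, adjusted p = 0.339), with 0.67 in maple syrup, 0.57 in sugar mix and 0.54 without the 2 farthest rats. Pck2 and Slc37a4 also had an unadjusted p under 0.05, with r = 0.61 (permutation p = 0.0345, adjusted p = 0.26) and rho = 0.47 (permutation p = 0.128, adjusted p = 0.461). For that pair r was 0.77 within maple syrup, 0.30 within sugar mix and 0.42 without the 2 farthest rats.

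Pck1 and Fbp1, the enzymes of the irreversible cytosolic steps, had r = 0.59 (permutation p = 0.0464, adjusted p = 0.26) and rho = 0.54 (permutation p = 0.0738, adjusted p = 0.413). This relation rested on few rats and on the diets. It was 0.36 without sugar mix replicate 3 and maple syrup replicate 3, the rats farthest from the median of Pck1. Within maple syrup r was 0.63 and within sugar mix -0.12, and with diet means subtracted it was 0.21. Pck1 and its coactivator Ppargc1a had r = 0.23 (permutation p = 0.471, adjusted p = 0.669) and rho = 0.15 (permutation p = 0.65, adjusted p = 0.849). The other probe sets of Ppargc1a gave r = 0.34 and 0.31 with Pck1. Without the 2 rats farthest from the median of Pck1, r with Ppargc1a was -0.08. A relation between the coactivator and Pck1 was thus not detectable over these 12 livers.

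**Figure D4:**
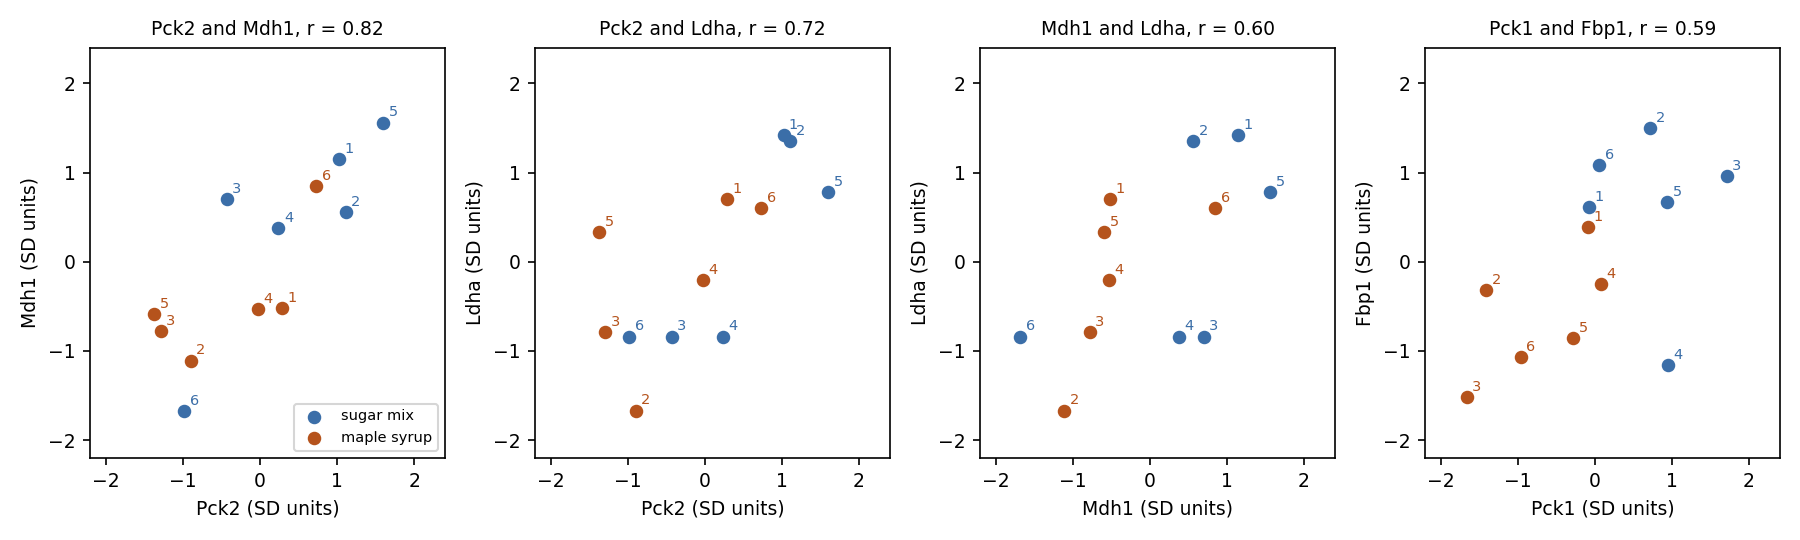
Standardised score of 1 gene against another in each liver (both axes in SD units, probe set with the highest mean), for Pck2 with Mdh1, Pck2 with Ldha, Mdh1 with Ldha and Pck1 with Fbp1. Blue points are sugar mix rats and orange points maple syrup rats, each with its replicate number; r is 0.82, 0.72, 0.60 and 0.59, and in the last panel sugar mix replicate 4 lies apart from the other sugar mix rats.

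For each gene the 3 named genes with the most similar pattern over the 12 livers were taken by Pearson r. For Pck1 these were Carmil1 (r = 0.869), a regulator of actin capping, Xdh (r = 0.859), the xanthine dehydrogenase of purine breakdown, and Defb22 (r = 0.842), a beta-defensin. Their mean levels were 6.79, 10.53 and 6.78, so those of Carmil1 and Defb22 lay toward the low end of the table (5.57 to 15.21). Only 8 of the 14216 other genes reached r = 0.8 with Pck1, and 10 did so with Fbp1, led by Lsm7 (r = 0.875), Bag6 (r = 0.865) and Mcoln1 (r = 0.862), a lysosomal ion channel. Pck2 had 69 such genes, led by Slc25a17 (r = 0.933), a peroxisomal carrier, Apoo (r = 0.917), a mitochondrial membrane protein, and Nudt9 (r = 0.904), an ADP-ribose hydrolase. Nudt9 also led the list of Mdh1 (r = 0.882), before Pnpla2 (r = 0.882), the triglyceride lipase of lipid droplets, and Pcyt1a (r = 0.876), an enzyme of phosphatidylcholine synthesis.

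Ldha had the most genes at r = 0.8 or above, 78, led by the chaperonin subunit Cct7 (r = 0.947), Tfg (r = 0.934) and Fbxo6 (r = 0.932). Gpd1 was most like Ppil1 (r = 0.908), Atg4b (r = 0.906), a protease of autophagy, and Nap1l4 (r = 0.901), a histone chaperone. Slc37a4 was most like Nxpe4 (r = 0.891), Hpn (r = 0.885), the liver serine protease hepsin, and Slc43a1 (r = 0.876), an amino acid transporter. Ppargc1a was most like Rnf123 (r = 0.924), Rxra (r = 0.915), the retinoid X receptor that partners many nuclear receptors of the liver, and Zyg11b (r = 0.884). These genes were picked as the highest of many correlations, so their r is expected to be too large, and no other member of the 8 was among the 3 nearest genes of any of them.

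The other genes of the route had no common direction. Of 63 further genes listed for glucose production and its control, 56 had a named probe set, 30 with a lower and 26 with a higher mean with maple syrup. After arrays were centred 11 of the 56 (19.6%) had a lower mean, against 7.08% of all named genes, so the split depends on the scaling. The median g was -0.04, the same as over all named genes, of which 52.9% were lower. By limma 0 of the 56 passed after adjustment, and 3 (Sds, Pklr and Pfkl) had an unadjusted p under 0.05, against 592 (4.16%) of all named genes. Among the other enzymes of the route from pyruvate to glucose, several of them shared with glycolysis, 7 of 9 had a lower mean and the median g was -0.32. Mdh2, the mitochondrial malate dehydrogenase, had g = -0.73 (95% interval -1.80 to 0.38), while Fbp2, the muscle form of the bisphosphatase, had g = 0.76 and Eno1, enolase, had g = 0.41.

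Genes of substrate entry had a lower mean in 6 of 14, and their median g was 0.09. Sds, serine dehydratase, which makes pyruvate from serine, had g = -1.41 (95% interval -2.60 to -0.18), a limma p of 0.0194 before adjustment, and a higher value with maple syrup in 4 of 36 pairs. Its relative Sdsl had g = -0.97, and Tkfc, which acts on glyceraldehyde from fructose, had g = 0.99. Carriers had a lower mean in 6 of 10. Slc16a1, which moves lactate and pyruvate across the cell membrane, had g = 1.14 (95% interval -0.04 to 2.27). Both subunits of the mitochondrial pyruvate carrier were higher with maple syrup in most pairs: Mpc1 had g = 0.88 and Mpc2 had g = 0.86, with 27 and 26 of 36 pairs. Neither had an interval that left out 0.

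Regulators had a lower mean in 9 of 18 and a median g of 0.02. Creb1, the factor of the cyclic AMP response element, had g = 0.87 (95% interval -0.26 to 1.97), Nr4a1, a nuclear receptor that responds to glucagon, had g = 0.80, and Irs1, which relays the insulin signal, had g = -0.92. Of 5 measured genes of opposing glycolytic steps, 2 had a lower mean and 3 a higher one. Pklr, pyruvate kinase, which uses up the phosphoenolpyruvate that Pck1 and Pck2 make, had g = 1.21 (95% interval 0.02 to 2.35). Its limma p was 0.0392 before adjustment, and Pklr was higher with maple syrup in 32 of 36 pairs. Pfkl, the liver phosphofructokinase that opposes Fbp1, had g = -1.17 (95% interval -2.30 to 0.02) and a limma p of 0.0485 before adjustment. Pdha1, which commits pyruvate to oxidation, had g = -0.39. In the values as deposited Pklr and Pfkl had estimates of opposite sign, each with an adjusted p of 1. This did not hold under other scalings: the moderated t was 2.54 for Pklr and 0.30 for Pfkl after centring, and that of Pklr was -0.79 after quantile normalization.

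**Figure D5:**
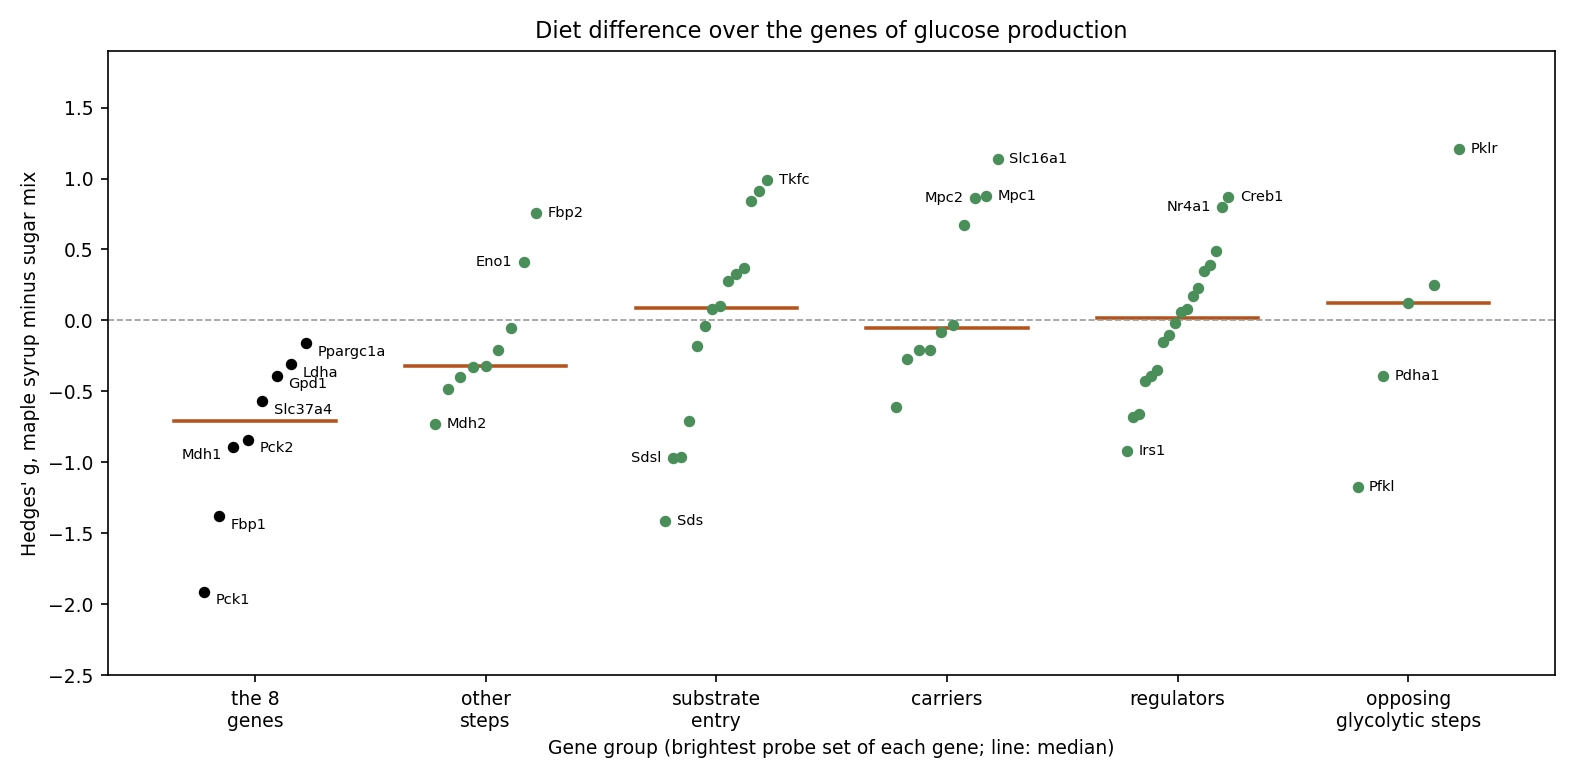
Hedges' g, maple syrup minus sugar mix, as SD between animals (y axis), for the 8 genes (black) and for 56 other genes of glucose production (green) in 5 groups (x axis), each gene by its probe set with the highest mean, 6 rats per diet. Lines are group medians, from -0.71 for the 8 genes to 0.12 for opposing glycolytic steps, and names mark the 8 genes and the 3 genes with the smallest p in each other group.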

How the data were processed

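Total RNA of each liver (2 ug) was made into biotin-labelled cRNA for an Affymetrix array, per the labels' protocols. The deposited table holds the authors' processed score for 31099 probe sets. How it was summarized and normalized is not given in the sources used here. No array pair was identical. The 57 array controls were left out, and the 20832 probe sets with 1 symbol in the platform annotation were used as named. Symbols were updated through Entrez IDs for the 20764 that matched RefSeq (GRCr8).

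Diets were compared over 31042 probe sets with limma 3.58.1 in R 4.3.3 (lmFit, eBayes with intensity trend, two-sided, Benjamini-Hochberg). Exact permutation used all arrangements, with a smallest possible p of 0.00216. In 3 simulated data sets of 31042 probe sets, limma recovered 11.3%, 48.7% and 76.7% of shifts of 2, 3 and 4 SD and called 0.0195% of unshifted ones. Correlations used 100000 resamples. The number of arrays limits the precision.

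The 8 genes, the lists and the tests were chosen with earlier results of these data known. Named were all 8 genes, the 3 pathway genes of each group with the smallest p, and the 3 nearest genes by r. Same-numbered rats of the diets did not deviate together (correlation -0.04 to 0.13), so numbers were not treated as pairs. Alternatives were other normalizations, probe set rules, filters and variance models, a replicate block and each rat left out. Figures used matplotlib 3.10.9.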

Additional observations from a re-analysis of the deposited data

Results flagged for a closer look

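In 3 of the 26 sets of 6 rats (13 probe sets in each diet), 1 rat lay far from the other 5 by Dixon's test. Chance gives about 1.3 for 26 sets. The share of such sets over the whole array was not computed, so the count is a description only. The sets share livers and are not independent. Values are in SD of the probe set over the 12 livers. Fbp1 was at -1.16 in sugar mix replicate 4, the lowest rat of that diet. Mdh1 (probe set 1367653_a_at) was at 0.85 in maple syrup replicate 6, the highest rat of that diet, and at -1.68 in sugar mix replicate 6, the lowest of that diet. The second probe set of Mdh1 was not marked in either diet.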

How the results depend on the processing

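No setting brought any probe set past the threshold: limma called 0 of all probe sets with other probe set rules, without the lowest 30%, without trend, with array weights, with the replicate block and with each rat left out, as did exact permutation. With the replicate block the moderated t of Pck1 was -2.98 in place of -3.49 and that of Fbp1 -2.35 in place of -2.61. Without the intensity trend the moderated t was -2.41 for Pck1 and -2.31 for Fbp1. Centring arrays on their median turned the moderated t of Pck1 to 0.65, Fbp1 0.62, Mdh1 0.39, Ldha 0.69, Sdsl 0.31, Pfkl 0.30, Pdha1 0.45, the second probe set of Pck2 0.48 and the third of Ppargc1a 0.14; quantile normalization turned Slc37a4 to 1.16, Ppargc1a 0.16, Fbp2 -1.27, Sdsl 0.20 and Pklr -0.79. Using the probe set with the largest SD turned Pdha1 to 0.04. With single rats left out, the moderated t of the Ppargc1a probe sets 1395518_at, 1393743_at and 1370089_at ran from -0.87 to 0.18, -0.83 to 0.32 and -0.74 to 0.21, and that of 1369560_at of Gpd1 from -0.96 to 0.53. Of the 8 genes, 4 stayed lower after centring and 1 of the 3 with a value after quantile normalization; of the other pathway genes 11 of 56 and 19 of the 44 with a value were lower in place of 30 of 56 (7.08% and 58.5% of all named genes with a value). With the probe set of the largest SD 0 of the 28 pairs passed, and Pck2 with Mdh1 had r = 0.51 (adjusted permutation p = 0.405). Adjusted over the 28 pairs, 1 pair passed by Spearman's rho, 1 with diet means subtracted and 7 after centring. In 6 of these 7 both genes carry little but the subtracted array median, so these 6 pairs say nothing about the genes. The other pair, Pck2 with Mdh1, is not free of it. Its centred values had r = 0.57 (Pck2) and 0.98 (Mdh1) with the array median turned in sign. With single rats left out 0 to 2 passed. The median r of probe sets of 1 gene was 0.78 after centring in place of 0.88.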

Other observations

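Within 1 diet some pairs of the 8 genes had large r that the other diet did not show; these pairs were picked after their values were seen, and the differences between diets were not tested. Slc37a4 and Gpd1 had r = -0.95 within the 6 maple syrup rats and -0.20 within the 6 sugar mix rats. With the second probe set of Gpd1 these values were -0.65 and 0.21. Pck2 and Ppargc1a had r = 0.91 within maple syrup and -0.32 within sugar mix, and their other probe sets gave 0.79 to 0.95 and -0.28 to 0.03.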
